A study of Mus musculus with 4 samples.

Results

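Inhibitory receptors are surface proteins that restrain a T cell after it has been activated. The 10 genes described here were taken by symbol from the 18560 genes of the deposited expression table, and all 10 were found. They are Pdcd1, Ctla4, Lag3, Havcr2, Tigit, Cd160, Btla, Lilr4b, Lilrb4a and Cd200r1. RNA was measured by bulk sequencing in activated CD4+ T cells from the spleen of C57BL/6 mice. In the Setd2 knockout group (genotype given as Setd2-CD4 cre, replicates 9 and 12) Setd2, the gene of the enzyme that trimethylates histone H3 at lysine 36, is targeted by a Cre recombinase under Cd4 control, a driver that acts in T cells from their development in the thymus onward. The wild type group has replicates 1 and 6, and the labels name neither a Cre nor a floxed allele for it. Naive cells of both groups had been stimulated with antibodies to CD3 and CD28 into Th0 cells, that is, helper cells activated without being steered to an effector type. The stimulation is given as 48 in the sample names, as 2 days in the design text and as 3 days in the treatment label. The labels give neither the ages of the mice nor whether each library came from a separate animal, so p-values measure the spread between these libraries, which may be technical.

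Most of these receptors become visible only after activation, since signals from the T cell receptor switch their genes on. PD-1, BTLA and gp49B carry tyrosine motifs in their tails that recruit phosphatases, which oppose the signals of the antigen receptor and CD28. CTLA-4 acts mainly by taking the shared ligands CD80 and CD86 away from CD28. Sustained high levels of several of these receptors on one cell mark exhausted T cells, while CTLA-4 and TIGIT are also abundant on regulatory T cells.

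Of the 10 genes, 4 stood higher in both Setd2 knockout libraries than in both wild type libraries, namely Lilrb4a, Lilr4b, Havcr2 and Pdcd1, by about 2 to 4 times. These 4 had a log2 fold change (knockout over wild type) above 1, as had 4.21% of all genes tested. Lag3 and Btla stood lower in both knockout libraries, by smaller amounts, and Ctla4, Tigit, Cd160 and Cd200r1 overlapped between the groups. Among all 12816 genes tested, 25.4% lay above and 24.3% lay below in this way. The count test of edgeR, with p-values adjusted over all genes by the Benjamini-Hochberg method, called 0 of the 10 at an adjusted p under 0.05, where 0.0078% of all genes were called in either direction. At an unadjusted p under 0.05, 4 of the 10 were higher and 1 was lower, against 6.23% and 5.73% of all genes. DESeq2 on the same counts called the same 4 higher and 0 lower, against 0.729% and 0.804% of the 12070 genes to which it gave an adjusted p. The 10 genes had a median log2 fold change of 0.09, against -0.002 for all genes tested, and 5 of the 10 were positive, against 49.8% of all genes.

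**Figure D1:**
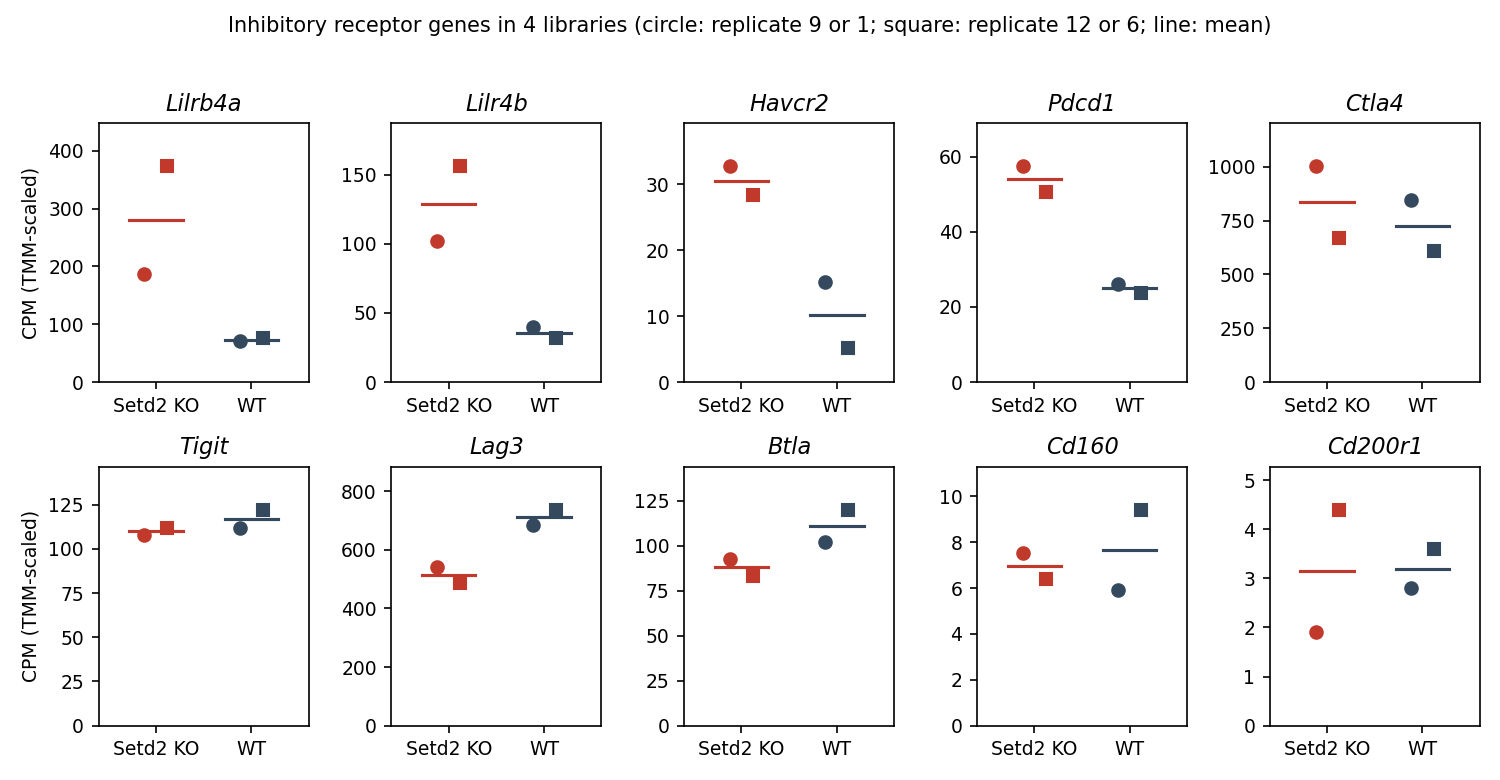
Level of each inhibitory receptor gene in CPM (counts scaled to library size with TMM factors, linear axis from 0) in the 2 Setd2 knockout libraries (red) and the 2 wild type libraries (blue), with the group mean as a line. The knockout points lie above the wild type points for Lilrb4a, Lilr4b, Havcr2 and Pdcd1 and below them for Lag3 and Btla.

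The libraries held between 17284613 and 20418766 counts, and the 10 genes together took between 0.183% and 0.213% of them. The T cell markers Cd3d, Cd3e, Cd3g, Cd4 and Thy1 were present in every library, summing to between 2109 and 2392 CPM. Of these 5, 4 lay lower in both knockout libraries (24.3% of all genes did) and 1, Thy1, higher (25.4%). Thy1 had 1105 and 1258 CPM in knockout and 781 and 608 CPM in wild type libraries. Cd4 alone had 404 and 445 CPM in knockout and 464 and 575 CPM in wild type libraries. On the scale of Cd4, the CD8 T cell markers Cd8a and Cd8b1 summed to 432 and 323.1 CPM in knockout and 260 and 330.4 CPM in wild type libraries. The cells that carried these CD8 transcripts were not determined. Setd2 itself stood at 127 and 113 CPM in knockout and at 157 and 174 CPM in wild type libraries (log2 fold change -0.47, SE 0.21, edgeR adjusted p 0.421). With a trend on gene length removed it was -0.02. The deleted part of the gene is not named, so this count over the whole gene is no check of the genotype labels. In bulk libraries, fewer cells of a type and less RNA per cell cannot be told apart.

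Compared per unit of gene length, as FPKM (fragments per kilobase of transcript, scaled to depth), the 10 genes covered more than 2 orders of size. In knockout libraries Ctla4 led with 518 and 328 FPKM, ahead of Lag3 with 268 and 230 FPKM. Lilrb4a (105 and 202 FPKM), Tigit (113 and 111 FPKM) and Lilr4b (74.5 and 115 FPKM) followed, and these 3 were not separated from each other by their spread. Pdcd1 and Btla overlapped at 24.9 to 29.7 and 24.3 to 27.9 FPKM, Havcr2 had 11.9 and 9.79 FPKM, and Cd160 and Cd200r1 were below 3 FPKM. In wild type libraries Ctla4 (438 and 333 FPKM) and Lag3 (342 and 387 FPKM) overlapped at the top, Tigit came next with 117 and 134 FPKM, and Lilrb4a was well below it with 39.3 and 45.6 FPKM. Btla (30.9 and 38.7 FPKM), Lilr4b (28.7 and 24.0 FPKM) and Pdcd1 (13.6 and 13.0 FPKM) followed in that order without overlap. At the low end of the wild type order, Havcr2 (5.51 and 2 FPKM) overlapped Cd160 (2.20 and 3.87 FPKM) and Cd200r1 (1.47 and 2.01 FPKM). Lilrb4a and Lilr4b thus exceeded Tigit in 1 library, knockout replicate 12, and lay under it in knockout replicate 9 and in both wild type libraries.

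The sum over the 10 genes was 1150.8 and 1049.5 FPKM in knockout libraries and 1018.2 and 982.8 FPKM in wild type libraries. Without Lilr4b and Lilrb4a it was 971.8 and 732.8 FPKM in knockout, against 950.2 and 913.2 FPKM in wild type libraries, so the groups then overlapped. Lilrb4a made up 9.09% and 19.2% of the full sum in knockout libraries and 3.86% and 4.64% in wild type libraries. Lag3 made up 23.3% and 21.9% in knockout libraries, against 33.6% and 39.3% in wild type libraries.

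**Figure D2:**
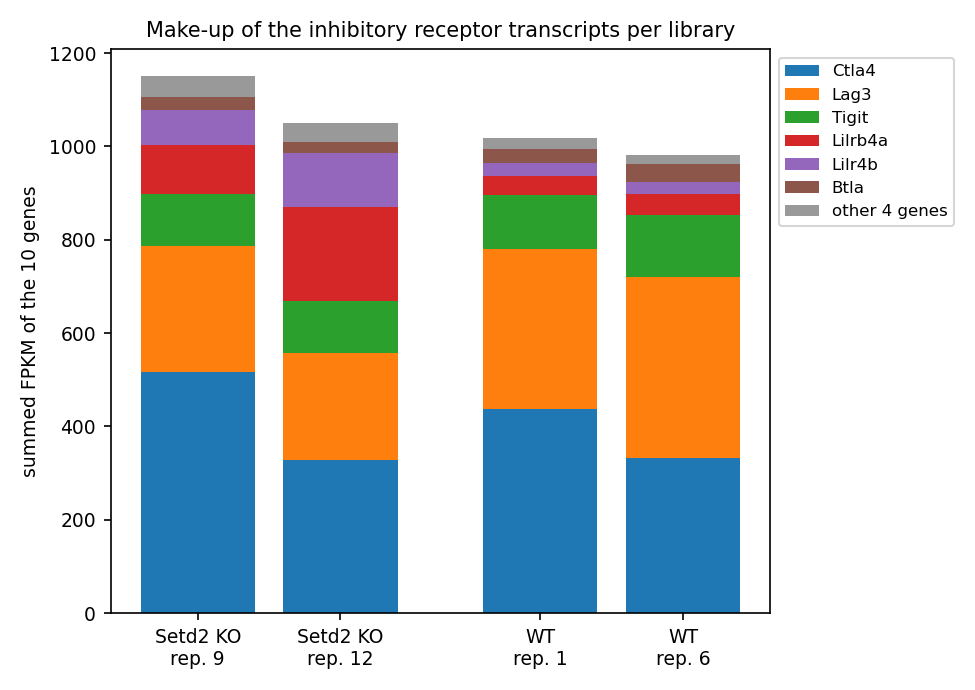
Summed FPKM of the 10 inhibitory receptor genes in each library (y axis, FPKM, from 0), with knockout libraries on the left and the colours giving each gene's part. Lilrb4a and Lilr4b take a larger part in the knockout bars, and Lag3 a smaller one.

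Lilrb4a and Lilr4b showed the largest differences of the 10. The pair sits side by side on chromosome 10 (GRCm38.p6), with Lilr4b (gene 14727) from 51480612 to 51486329 and Lilrb4a (gene 14728) from 51490898 to 51496613. Lilrb4a encodes gp49B, an immunoglobulin-type receptor with inhibitory tyrosine motifs in its tail, best known from mast cells and other myeloid cells. Lilr4b encodes gp49A, whose shorter tail lacks those motifs, so that by its protein it is not an inhibitory receptor in the strict sense. Lilrb4a had 187 and 373 CPM in knockout replicates 9 and 12, against 70.2 and 76.5 CPM in wild type replicates 1 and 6. Lilr4b had 102 and 156 CPM in the same knockout libraries, against 39.7 and 31.7 CPM in wild type. For both genes knockout replicate 12 was the highest library and the 2 groups did not overlap.

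The Lilrb4a difference was 3.82-fold (95% interval 2.22 to 6.57, log2 1.93, SE 0.34). Its edgeR p was 0.000515 (adjusted p 0.261). For Lilr4b it was 3.61-fold (2.32 to 5.61, log2 1.85, SE 0.27). Its edgeR p was 0.000172 (adjusted p 0.174). These were the 24th and 12th smallest p of the 12816 genes tested. DESeq2 gave adjusted p values of 3.32e-06 for Lilrb4a and 4.36e-07 for Lilr4b. It called both also with any single library left out, with adjusted p of at most 0.0109. Without knockout replicate 12 the edgeR log2 fold changes were 1.35 for Lilrb4a and 1.51 for Lilr4b, and without knockout replicate 9 they were 2.34 and 2.11.

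Because the genes are near copies, the split of reads between them is uncertain. In the longest coding sequences of the GENCODE M21 annotation, 909 bases for Lilr4b and 1005 bases for Lilrb4a without the stop codon, 871 of 907 aligned bases were identical (96%). Of all runs of 50 bases in the coding transcripts of Lilr4b, 24.1% also occurred in those of Lilrb4a, and 28.4% the other way. A further annotated locus, Gm49339, shared 92.5% of the runs of Lilrb4a, and it had no row of its own among the genes analysed. For each of the other 8 genes at most 2.2% of such runs (Cd200r1, with Cd200r4) occurred in another gene. Neighbouring 90-base stretches of the coding sequence show both situations (+ strand, written 5′ to 3′, capitals mark bases that differ between the genes). In the first, coding bases 212 to 301, 11 of 90 bases differ and reads can be told apart:
Lilr4b, chr10:51481281-51481370: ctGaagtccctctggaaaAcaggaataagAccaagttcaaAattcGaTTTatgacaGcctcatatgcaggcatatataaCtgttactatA
Lilrb4a, chr10:51491575-51491664: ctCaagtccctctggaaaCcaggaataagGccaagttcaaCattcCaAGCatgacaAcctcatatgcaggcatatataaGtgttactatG
The next 90 coding bases, 302 to 391, are split by an intron in the genome and have no difference between the genes, so a read inside them fits either:
Lilr4b, chr10:51481371-51481602: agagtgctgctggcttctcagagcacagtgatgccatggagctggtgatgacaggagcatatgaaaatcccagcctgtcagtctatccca
Lilrb4a, chr10:51491665-51491896: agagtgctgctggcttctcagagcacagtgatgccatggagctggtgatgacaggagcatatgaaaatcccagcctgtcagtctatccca
The sum of both genes does not depend on that split. It was 288.6 and 528.8 CPM in knockout libraries and 109.9 and 108.2 CPM in wild type libraries. Tested as a single row, the pair had a log2 fold change of 1.91 and an edgeR adjusted p of 0.237. The ratio of Lilrb4a to Lilr4b in FPKM was 1.4 and 1.76 in knockout libraries and 1.37 and 1.9 in wild type libraries, so it overlapped between the groups.

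Both genes are known from mast and other myeloid cells, and markers of these cells were read beside them. The 6 mast cell and basophil markers summed to 12.88 and 8.415 CPM in knockout and to 3.459 and 10.07 CPM in wild type libraries, with Fcer1a at 0 in both wild type libraries, Mcpt8 at 0 in wild type replicate 1 and Cpa3 at 0 in wild type replicate 6. The 4 markers tested all had a positive log2 fold change (49.8% of all genes had one), with a median of 0.76, and 2 of them lay above in both knockout libraries (25.4% of all genes did). Cpa3, a mast cell protease, was at 0.87 and 0.929 CPM in knockout libraries, against 0.0509 and 0 CPM in wild type libraries. Ms4a2 had 1.8 and 0.981 CPM in knockout and 0.509 and 0.809 CPM in wild type libraries. Fcer1a, too low to test, had 0.696 and 0.155 CPM in knockout libraries. The most abundant markers of the list were Kit by CPM, with 7.08 and 2.79 CPM in knockout and 1.63 and 5.51 CPM in wild type libraries, and Hdc by mean FPKM, with 0.94 and 1.08 FPKM in knockout and 0.53 and 1.55 FPKM in wild type libraries. Both overlapped between the groups. The 8 myeloid and dendritic cell markers summed to 21.93 and 23.34 CPM in knockout and 17.8 and 29.28 CPM in wild type libraries, with none at 0. These marker sums do not show how much Lilr4b and Lilrb4a RNA such cells carry, and the part of these cells in the difference was not tested.

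Havcr2 (gene 171285, chromosome 11, 46454931 to 46481255) encodes TIM-3, a receptor first known from interferon-producing helper cells and later from exhausted T cells. It had 32.7 and 28.3 CPM in knockout libraries, against 15.1 and 5.21 CPM in wild type libraries. The knockout libraries lay close together and above both wild type libraries, which themselves were far apart, with replicate 6 the lowest. The difference was 3-fold (95% interval 1.42 to 6.35, log2 1.59, SE 0.46). The edgeR p was 0.0102 (adjusted p 0.386) and the DESeq2 adjusted p 0.0355. The size depended on the wild type library kept. It was 2.56 on the log2 scale without wild type replicate 1 (edgeR adjusted p 0.00263) and 1.01 without wild type replicate 6 (edgeR adjusted p 0.597). The DESeq2 call was lost without wild type replicate 6, without knockout replicate 9 and without knockout replicate 12.

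Pdcd1 (gene 18566, chromosome 1, 94038305 to 94052553) encodes PD-1, the receptor for PD-L1 and PD-L2. It had 57.4 and 50.7 CPM in knockout libraries, against 26.1 and 23.8 CPM in wild type libraries. Replicates of each group were close to each other and the groups were clearly apart. The difference was 2.16-fold (95% interval 1.53 to 3.05, log2 1.11, SE 0.21). The edgeR p was 0.000912 (adjusted p 0.261) and the DESeq2 adjusted p 0.00585. Its size moved little with a library left out, between 1.01 and 1.2 on the log2 scale in edgeR, but DESeq2 called it in 0 of the 4 runs that left out 1 library (adjusted p 0.093 to 0.817). Beside Pdcd1 and Havcr2, which CD8 T cells and, for Havcr2, NK cells also use, the 6 NK cell markers summed to 96.71 and 47.6 CPM in knockout and 20.7 and 54.37 CPM in wild type libraries, with none at 0. Of the CD8 T cell markers, Cd8b1 stood at 238 and 188 CPM in knockout and 141 and 183 CPM in wild type libraries. Cd8a overlapped between the groups, with 194 and 136 CPM in knockout and 119 and 147 CPM in wild type libraries. The part of these cells in the differences was not tested.

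**Figure D3:**
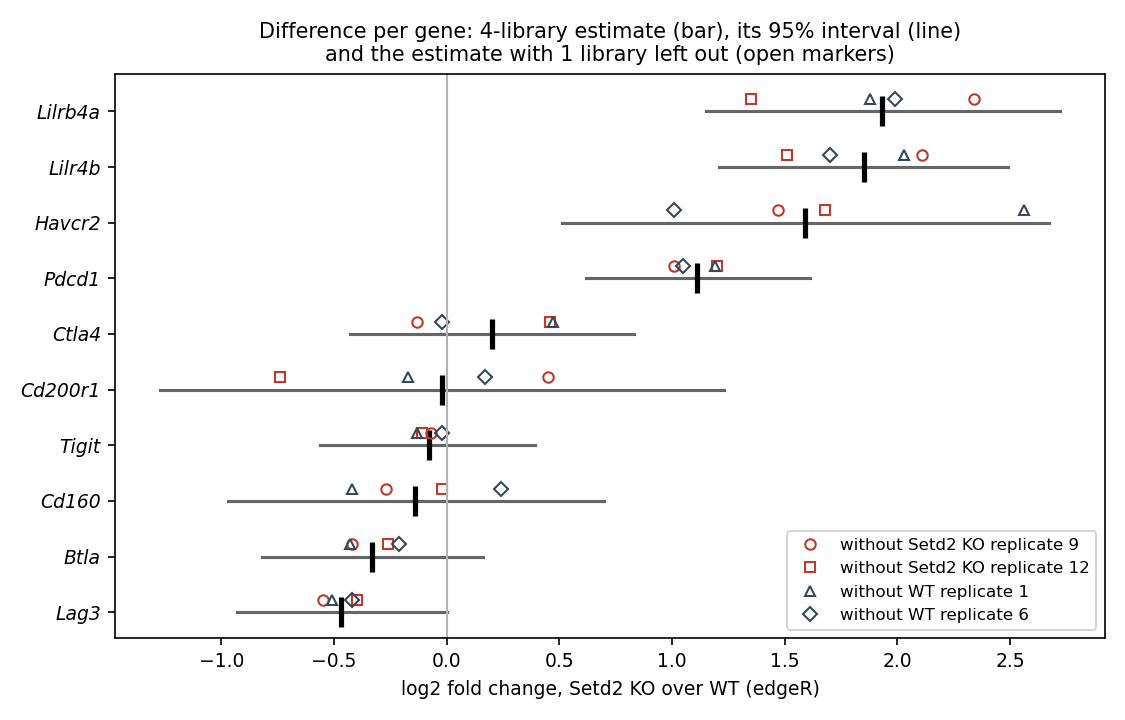
Log2 fold change of each gene, Setd2 knockout over wild type, from edgeR (x axis): the black bar is the 4-library estimate, the line its 95% interval and the open markers the estimate with 1 library left out. The intervals of Lilrb4a, Lilr4b, Havcr2 and Pdcd1 lie above 0, and the markers of Ctla4, Cd160 and Cd200r1 fall on both sides of 0.

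Lag3 (gene 16768, chromosome 6, 124904359 to 124912434) encodes LAG-3, a relative of CD4 that binds MHC class II. It was the largest difference in the other direction, with 540 and 488 CPM in knockout libraries, against 686 and 736 CPM in wild type libraries. The groups did not overlap, and each pair of replicates was close. The knockout level was 0.723 of the wild type level (95% interval 0.524 to 0.998, log2 -0.47, SE 0.2). The edgeR p was 0.0488 (adjusted p 0.416) and the DESeq2 adjusted p 0.317. Lag3 kept its direction in all 15 other settings tried, from -0.6 with the length trend removed to -0.4 without knockout replicate 12, and passed the threshold in 0 of them.

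Btla (gene 208154, chromosome 16, 45223705 to 45252895) and Cd160 (gene 54215, chromosome 3, 96798763 to 96829351) encode receptors that share the ligand HVEM. Btla had 92.6 and 83.5 CPM in knockout libraries, against 102 and 120 CPM in wild type libraries, so the knockout libraries were lower without overlap. The knockout level was 0.796 of the wild type level (95% interval 0.565 to 1.12, edgeR adjusted p 0.499). Btla is also abundant on B cells, whose 5 markers summed to 192.1 and 335.5 CPM in knockout and 262.4 and 179 CPM in wild type libraries. These sums had no constant order between the groups. Of the 5, 1, Pax5, lay lower in both knockout libraries (24.3% of all genes did) and 0 higher (25.4%). Pax5 had 33.1 and 33.0 CPM in knockout and 52.0 and 40.1 CPM in wild type libraries, and the other 4 had positive log2 fold changes. The part of B cells in the level of Btla was not tested. Cd160 was low, with 7.54 and 6.4 CPM in knockout and 5.9 and 9.41 CPM in wild type libraries. Its groups overlapped, with a ratio of 0.911 (0.51 to 1.62, edgeR adjusted p 0.883).

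Ctla4 and Tigit did not differ beyond their error. Ctla4 (gene 12477, chromosome 1, 60909025 to 60915832) had 1003 and 670 CPM in knockout libraries, against 846 and 609 CPM in wild type libraries. The spread within each group was larger than the distance between their means, and the ratio was 1.15 (95% interval 0.743 to 1.78, edgeR adjusted p 0.747). Tigit (gene 100043314, chromosome 16, 43626137 to 43665125), the receptor for CD155, had 108 and 112 CPM in knockout libraries and 112 and 122 CPM in wild type libraries, which overlapped in CPM but not in FPKM. Its ratio was 0.944 (0.68 to 1.31, edgeR adjusted p 0.872), an interval that still holds changes in both directions. Foxp3, which marks the regulatory T cells in which CTLA-4 and TIGIT are abundant, stood at 20.5 and 39.4 CPM in knockout libraries and 90.3 and 63 CPM in wild type libraries (edgeR adjusted p 0.349, DESeq2 adjusted p 0.0152). The 5 regulatory T cell markers summed to 78.96 and 102.6 CPM in knockout and 237.2 and 154.7 CPM in wild type libraries. Of the 5, 3 lay lower in both knockout libraries (24.3% of all genes did) and 1, Nrp1, higher (25.4%). Nrp1 had 9.28 and 8.67 CPM in knockout and 5.44 and 6.22 CPM in wild type libraries, and Ikzf2 overlapped between the groups. The part of these markers in the levels of Ctla4, Tigit and Lag3 was not tested.

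Cd200r1 (gene 57781, chromosome 16, 44765736 to 44794977), the receptor for CD200, had the fewest counts of the 10 in each library, and by FPKM it was the lowest in 3 of the 4 libraries, with Havcr2 level with it in wild type replicate 6. It had 33 and 85 counts in knockout libraries and 55 and 71 counts in wild type libraries, which is 1.91 and 4.39 CPM against 2.8 and 3.59 CPM. The 2 knockout libraries were the lowest and the highest of the 4. At this depth the ratio of 0.989 had a wide interval (0.416 to 2.35, edgeR adjusted p 0.992).

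In these libraries log2 fold changes were lower in longer genes, so each gene was also set beside genes within 10% of its own effective length. The 4 higher genes exceeded most of them. Havcr2 and Lilrb4a were above 99% of such genes, Lilr4b above 98.9% and Pdcd1 above 96%. These 4 had been singled out by their high fold changes, so their ranks on the same fold changes are no separate support. The remaining members were above 12.4% (Lag3) to 56.5% (Ctla4) of genes of like length. Tigit has the shortest transcript of the 10, with an effective length of 958 bases, and genes of like length had a median log2 fold change of 0.35, against -0.08 for Tigit. With the length trend removed Tigit was at -0.41 (edgeR adjusted p 0.473), the largest shift of the 10, and Lilrb4a, Lilr4b, Havcr2 and Pdcd1 were at 1.73, 1.59, 1.57 and 0.97.

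RefSeq promoter windows (GRCm38.p6, 250 bases before to 50 after the start site) were available for 7 of the 10 genes, with 8 windows in all, and those of 3 of the 4 higher genes are printed because these genes stood higher together. Capitals mark matches, on either strand, to short motifs of factors active in stimulated T cells, namely TGANTCA for AP-1, GGAAA for NFAT and GGTGTGA for T-box factors:
Pdcd1, chr1:94052504-94052803, - strand: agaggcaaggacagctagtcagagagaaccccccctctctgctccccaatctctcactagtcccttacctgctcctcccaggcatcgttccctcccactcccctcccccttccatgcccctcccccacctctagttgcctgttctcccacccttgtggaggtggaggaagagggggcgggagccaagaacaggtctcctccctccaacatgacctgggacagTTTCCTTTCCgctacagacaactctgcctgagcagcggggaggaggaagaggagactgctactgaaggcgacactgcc
Havcr2, chr11:46454681-46454980, + strand: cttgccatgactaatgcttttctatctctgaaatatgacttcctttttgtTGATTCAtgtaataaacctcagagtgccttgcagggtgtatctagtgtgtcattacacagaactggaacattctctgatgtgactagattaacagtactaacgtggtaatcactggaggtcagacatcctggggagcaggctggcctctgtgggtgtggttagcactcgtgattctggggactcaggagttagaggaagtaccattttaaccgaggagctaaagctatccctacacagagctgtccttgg
Lilr4b, chr10:51480362-51480661, + strand: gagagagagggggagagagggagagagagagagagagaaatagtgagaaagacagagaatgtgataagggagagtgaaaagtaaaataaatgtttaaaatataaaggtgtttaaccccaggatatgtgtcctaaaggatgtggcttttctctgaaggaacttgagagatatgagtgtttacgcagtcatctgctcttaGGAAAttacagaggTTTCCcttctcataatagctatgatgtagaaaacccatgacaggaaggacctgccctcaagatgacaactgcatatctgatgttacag
Pdcd1 and Lilr4b each had 2 GGAAA matches, at -28 and -23 and at -52 and -38 bases from the start, a motif present in 61.3% of all 32851 windows of this length. Havcr2 had 1 match to TGANTCA, present in 7.8% of windows, and none to GGAAA or GGTGTGA. Among the other members, Ctla4 had 1 and Tigit 2 matches to GGAAA, Btla and the first Cd160 window had none of any kind, and the second Cd160 window had 1 GGAAA and 1 GGTGTGA match (4% of windows). A longer NF-kappaB motif, present in 20.7% of windows, was found in 0 of the 8. The windows of the 3 higher genes thus had no motif in common. CG pairs over the 8 windows ranged from 1 in Lilr4b to 8 in Ctla4, and were not compared with other windows.

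The partners of these receptors were read from lists of ligands, signal mediators, related receptors and regulators. Over the 6 lists, of 9 to 18 tested genes each, edgeR called 0 genes, against 0.0078% of all genes, and DESeq2 called Cd101 lower and Eomes and Id3 higher, against 0.804% and 0.729% of all genes. Of 12 tested ligand genes, 5 lay above and 3 below without overlap (25.4% and 24.3% of all genes did), with a median log2 fold change of 0.09 that was -0.07 without knockout replicate 12, and Fgl1 and Clec4g, both ligands of LAG-3, were too low to test. The ligands of smallest p were both lower. Tnfrsf14, which encodes HVEM, the ligand of BTLA and CD160, had 26.9 and 14.3 CPM in knockout libraries, against 34.6 and 63.3 CPM in wild type libraries (log2 -1.25, SE 0.39, edgeR adjusted p 0.394). Cd274, which encodes PD-L1, had 70.7 and 70 CPM in knockout libraries, against 94 and 137 CPM in wild type libraries (-0.71, SE 0.24, edgeR adjusted p 0.412). The receptor gene Pdcd1 and its ligand gene Cd274 thus stood on opposite sides of 0.

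Of 12 mediators that carry the inhibitory signal, such as the phosphatase genes Ptpn6 and Ptpn11, 4 lay above and 2 below, near the 25.4% and 24.3% of all genes, with a median of 0.05 that ranged between -0.05 (without knockout replicate 12) and 0.23 (without knockout replicate 9). Rasa1, a Ras GTPase-activating protein, was at -0.77 (SE 0.28) and Sh2d1a, the adaptor SAP, at 0.61 (SE 0.27), with edgeR adjusted p of 0.412 and 0.417. Ptpn6 had 271 and 403 CPM in knockout and 291 and 278 CPM in wild type libraries, and Ptpn11 had 105 and 101 CPM in knockout and 116 and 101 CPM in wild type libraries, so both groups overlapped for both. Of 15 other inhibitory receptors, 5 had a positive log2 fold change (49.8% of all genes had one) and 10 a negative one. The median was -0.32, and -0.15 without wild type replicate 6. Cd101 had 5.51 and 6.92 CPM in knockout libraries, against 12 and 22.1 CPM in wild type libraries (-1.45, SE 0.36, edgeR adjusted p 0.329, DESeq2 0.0457). Klrc1, which encodes the lectin receptor NKG2A, had 29.3 and 12 CPM in knockout libraries, against 6.41 and 10.9 CPM in wild type libraries (1.26, SE 0.46, edgeR adjusted p 0.412), and was at 0.47 without knockout replicate 9.

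Of 9 activating counterparts, 4 were positive and 5 negative, with a median of -0.04 that turned to 0.25 without knockout replicate 9 and to 0.23 without wild type replicate 1. Tnfrsf9, the costimulator 4-1BB, had 509 and 565 CPM in knockout libraries, against 301 and 341 CPM in wild type libraries (0.74, SE 0.21, edgeR adjusted p 0.369). Cd27 had 154 and 134 CPM in knockout libraries, against 215 and 290 CPM in wild type libraries (-0.81, SE 0.24, edgeR adjusted p 0.384). Cd28 and Cd226, named after their values were seen because they share ligands with CTLA-4 and TIGIT, were at -0.43 (SE 0.28) and 0.85 (SE 0.34), and neither passed edgeR (adjusted p 0.498 and 0.413).

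Of 18 transcription factors known to act on inhibitory receptor genes, 4 were positive, against 49.8% of all genes, and 14 negative. The median was -0.22, and -0.14 with the length trend removed. The exhaustion factor Tox had 11.2 and 6.81 CPM in knockout and 7.63 and 12.1 CPM in wild type libraries, which overlapped. Eomes (1.28, SE 0.25) and Id3 (1.33, SE 0.29) were the positive members of smallest p, with edgeR adjusted p of 0.261 and 0.275 and DESeq2 adjusted p of 0.0132 and 0.0391. Nfatc1, the NFAT factor linked to Pdcd1 in mouse T cells, had 228 and 209 CPM in knockout libraries, against 270 and 275 CPM in wild type libraries (edgeR adjusted p 0.496). Of 11 genes of traffic, shedding and turnover, 2 lay above and 4 below (25.4% and 24.3% of all genes did), with a median of -0.05 that was -0.34 without knockout replicate 9. Cbl, a ubiquitin ligase, had 150 and 50.6 CPM in knockout libraries, against 196 and 228 CPM in wild type libraries (-1.08, SE 0.46, edgeR adjusted p 0.417), and was at -2.08 without knockout replicate 9 and -0.5 without knockout replicate 12. Ap2m1, a subunit of the adaptor that takes CTLA-4 from the surface, was at 0.33 (SE 0.22, edgeR adjusted p 0.512).

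**Figure D4:**
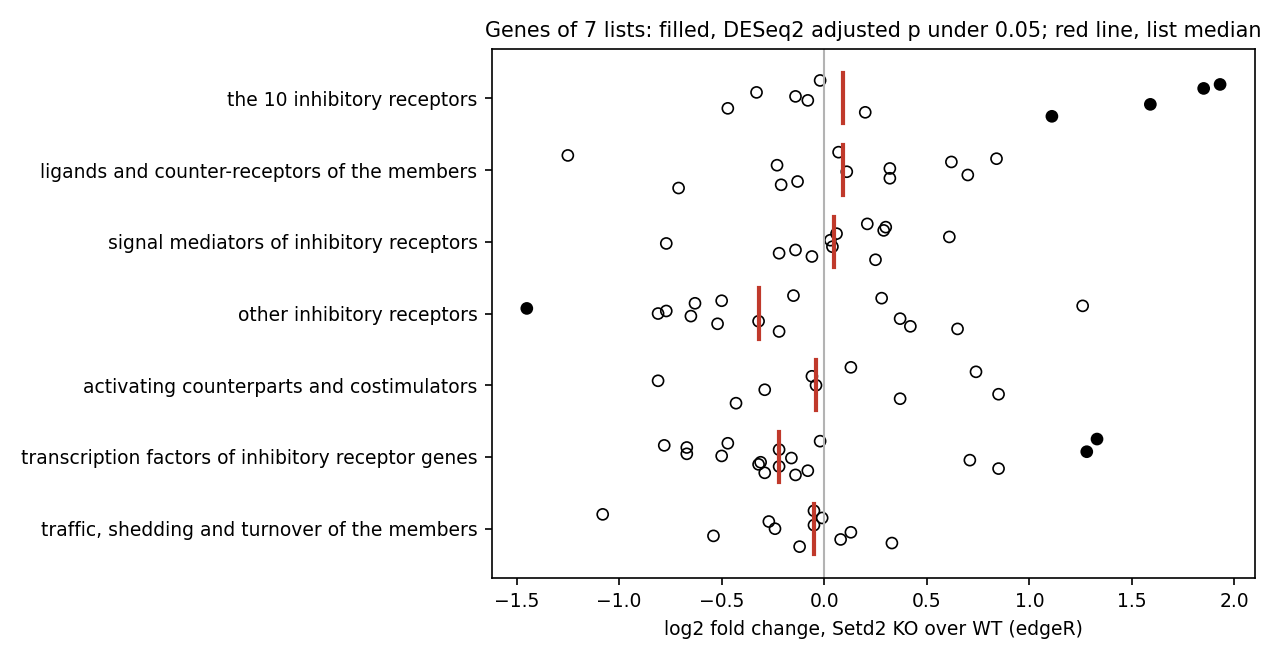
Log2 fold change of each tested gene, Setd2 knockout over wild type, from edgeR (x axis), for the 10 inhibitory receptors and the 6 lists of their partners (rows), with filled points for a DESeq2 adjusted p under 0.05 and a red line at each list's median. The 4 filled points of the receptors lie at 1.11 or more, and the other 6 lie between -0.47 (Lag3) and 0.2 (Ctla4). In the other lists 3 of the points are filled.

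The state of activation was read from a further list. The activation markers Il2ra, Cd44, Cd69, Mki67 and Tfrc went both ways, with a median of 0.08. Il2ra, the most abundant, had 1824 and 1827 CPM in knockout and 2203 and 1252 CPM in wild type libraries, with overlap. Mki67, a marker of dividing cells, had 1190 and 671 CPM in knockout libraries, against 1354 and 1435 CPM in wild type libraries (log2 -0.58, SE 0.29, edgeR adjusted p 0.429). Cd44, an adhesion receptor, had 77.4 and 108 CPM in knockout libraries, against 75.1 and 75.2 CPM in wild type libraries (log2 0.3, SE 0.23, edgeR adjusted p 0.562). Of the 5 markers, 1, Mki67, thus lay lower in both knockout libraries (24.3% of all genes did) and 1, Cd44, higher (25.4%), and neither passed the test. Cd69 and Tfrc overlapped between the groups, as Il2ra did. Among single genes of resting T cells, Klf2, a transcription factor of quiescence, had 68.2 and 70.9 CPM in knockout libraries, against 116 and 158 CPM in wild type libraries (edgeR adjusted p 0.312, DESeq2 0.0174). S1pr1, the receptor that guides T cells out of lymphoid organs, had 51.6 and 45.3 CPM in knockout libraries, against 98.1 and 145 CPM in wild type libraries (edgeR adjusted p 0.261, DESeq2 0.000698). Both were lower in both knockout libraries, as 24.3% of all genes were. The part of these genes in the levels of the 4 higher receptor genes was not tested.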

How the data were processed

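Gene-level values of 4 RNA-seq libraries were used. Total RNA had been taken up in TRIzol and read on a HiSeq instrument, per the labels' protocols. The submitters' processing notes name Bowtie2, RSEM, GRCm38.p6 and mm10 without tool versions. The deposited table holds, per the file headers, a read count and an expression value per gene and library. The deposited counts are not all whole and were taken to be the expected counts that RSEM estimates. The expression value has no stated unit and was taken as FPKM made by the authors, because count and value together imply lengths at a median of 0.998 of the annotated ones over 834 single-transcript genes of over 1000 bases. The authors' group averages were not used. Of the gene IDs, 99.3% matched the RefSeq table of GRCm38.p6.

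Expected counts were rounded, filtered with filterByExpr (minimum count 10), scaled by TMM (factors 0.998, 0.949, 1 and 1.056 for knockout 9 and 12 and wild type 1 and 6) and tested two-sided with edgeR 4.0.16 (quasi-likelihood F test, robust, R 4.3.3), with Benjamini-Hochberg adjustment over 12816 genes and a threshold of 0.05. The SE was taken from the F statistic, and 95% intervals from it with the test's degrees of freedom. DESeq2 1.42.0 and limma 3.58.1 were alternatives, with pseudocounts of 1 and 0.1 on FPKM. The edgeR, DESeq2 and limma-voom fits were tested on simulated data. Expected counts can share reads between near-identical genes.

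The 10 genes, the lists and the tests were chosen with earlier results of these data known. Named partners were the 2 of smallest edgeR p of each list, and Setd2, while Cd28, Cd226, Ptpn6, Ptpn11, Tox, Nfatc1, Foxp3, Cpa3, Cd8b1, Kit, Hdc, Mki67, Cd44, Klf2, S1pr1, Fgl1, Clec4g and further named markers were chosen after their values were seen. Chi-square per degree of freedom between libraries was 28.47 to 150.5, so no library was a copy of another. The closest pair crossed the groups, knockout replicate 9 and wild type replicate 1 at 28.47. The 2 knockout libraries were at 49.13, the 2 wild type libraries at 42.51 and the other pairs across groups at 65.45, 77.42 and 150.5. On this measure the libraries thus did not all pair by genotype. In the gamma-delta T cell list 1 gene, Sox13, was measured, under 1 CPM in each library. One further marker list is not reported here. Intervals rest on the spread between 2 libraries per group, which the fit moderates with the spread of the other genes. There were 2 residual degrees of freedom and a median of 5.74 from the other genes.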

Additional observations from a re-analysis of the deposited data

How the results depend on the processing

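Lilrb4a, Lilr4b, Havcr2, Pdcd1, Lag3, Btla and Tigit kept their direction in each of the 15 or 16 alternatives run in edgeR, limma or DESeq2. No paired analysis was possible because the groups share no replicate number. In edgeR 0 of the 10 genes were called higher, against 3 with no filter on low counts (Pdcd1, Lilr4b and Lilrb4a), 4 in DESeq2, and between 0 and 3 with a library left out (Havcr2, Lilr4b and Lilrb4a without wild type replicate 1, Lilr4b and Lilrb4a without wild type replicate 6). The count of lower members was 0 in each of these. Over all genes edgeR called 1 higher and 0 lower, against 48 and 33 with no filter, 88 and 97 in DESeq2, and between 0 and 113 higher and 0 and 81 lower with a library left out. DESeq2, in settings added after the data were seen, called between 2 and 3 members with a library left out (Lilr4b and Lilrb4a each time), and between 27 and 173 higher genes (31 without wild type replicate 6) and 13 and 302 lower ones, as well as the same 4 members with the length trend removed or with no filter. The cause of these shifts was not tested. The log2 fold changes of 3 members changed sign with a library left out. Ctla4 ranged between -0.13 (without knockout replicate 9) and 0.47, with -0.02 without wild type replicate 6. Cd160 ranged between -0.42 and 0.24 (without wild type replicate 6), and Cd200r1 between -0.74 and 0.45 (without knockout replicate 9), with 0.17 without wild type replicate 6. With 1 library left in a group, its spread is assumed to be that of the other group. The median of the 10 genes was -0.06 with the length trend removed and -0.02 on FPKM with a pseudocount of 0.1. The number of libraries, 2 per group, and for Cd200r1 its depth of under 100 counts per library, limit the differences that can be shown.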
